A study of Laccaria bicolor with 4 samples.

Results

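The long gene models of the ectomycorrhizal fungus *Laccaria bicolor*, those that span 5000 bp or more from start to end, were examined in RNA-seq of mycelium with and without vitamin C. The span was taken from the gene coordinates on the V2 genome, and 588 of 23125 gene models reached 5000 bp (2.54%). Together they covered 3.96 Mb, which is 11% of the summed span of all models, with a median of 6105 bp and a range of 5002 to 16073 bp. They were set against the 7510 models of 1000 to 2000 bp (median 1419 bp), which lie on both sides of the median of all models (1191 bp). The study compared 2 libraries of mycelium of the haploid monokaryotic strain S238N-H82, given vitamin C at 5 mM over 2 days, with 2 libraries of untreated mycelium of the same strain. All cultures came from liquid medium after 8 weeks, and the submitters call the libraries of a condition biological replicates. RNA above 200 nt was sequenced as stranded libraries after removal of ribosomal RNA. Values of single libraries are given in the order replicate 1, replicate 2. Vitamin C was given in the study to raise the activity of TET-type oxygenases, which oxidize 5-methylcytosine in nucleic acids.

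Genes of basidiomycetes are compact, with short introns and short gaps between neighbours, so a model of several kilobases can stand for a large protein, for a transposable element with its own coding sequence, or for neighbouring units joined in the annotation. In fungi generally, long genes include those of the dynein heavy chain, which moves cargo along microtubules, of the acetyl-CoA carboxylase and fatty acid synthase of lipid synthesis, and of polyketide and non-ribosomal peptide synthetases. Retrotransposons, which carry long open reading frames, are often silenced by DNA methylation. No identifier in the files comes with a gene name, and 0 of the 23125 were found in the RefSeq genes of the V1.0 assembly. Long genes are therefore named by V2 coordinates, with no product assigned.

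The unit is TPM, the part of a gene in the transcripts within its library, scaled by the length of its exons. Exon lengths were not used here, so the span includes introns. The ratio of coverage to FPKM in the deposited values corresponded to 5.65 and 4.27 Gb of aligned bases in vitamin C replicates 1 and 2, and to 4.2 and 4.4 Gb in untreated replicates 1 and 2. Vitamin C replicate 1 thus stood apart as the deepest library. Among expressed long genes the median read depth over the exons was 70.7 and 42.2 in the vitamin C libraries and 40.0 and 45.1 in the untreated libraries.

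About 3 in 4 long genes were expressed, and nearly the same ones in both conditions. A gene was taken as expressed when the mean TPM of its condition was above 0.05, the threshold of the study. By this measure 442 of 588 long genes were expressed with vitamin C (75.2%) and 443 in untreated mycelium (75.3%). The genes of 1000 to 2000 bp gave 73.2% with vitamin C and 73.5% in untreated mycelium, and all genes 64.7% and 65.1%. In single libraries 443 and 440 long genes passed the threshold with vitamin C and 442 and 441 in untreated mycelium. The share of long genes exceeded that of the genes of 1000 to 2000 bp by 2.37 and 2.33 percentage points in the vitamin C libraries and by 2.35 and 2.03 in the untreated libraries. This excess did not differ between the conditions beyond the spread of the libraries (two-sided exact permutation test, p = 0.667). With 2 libraries against 2 such a test cannot go below 0.333. The replicates are as the labels give them, so a p-value measures only the spread between these libraries.

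**Figure D1:**
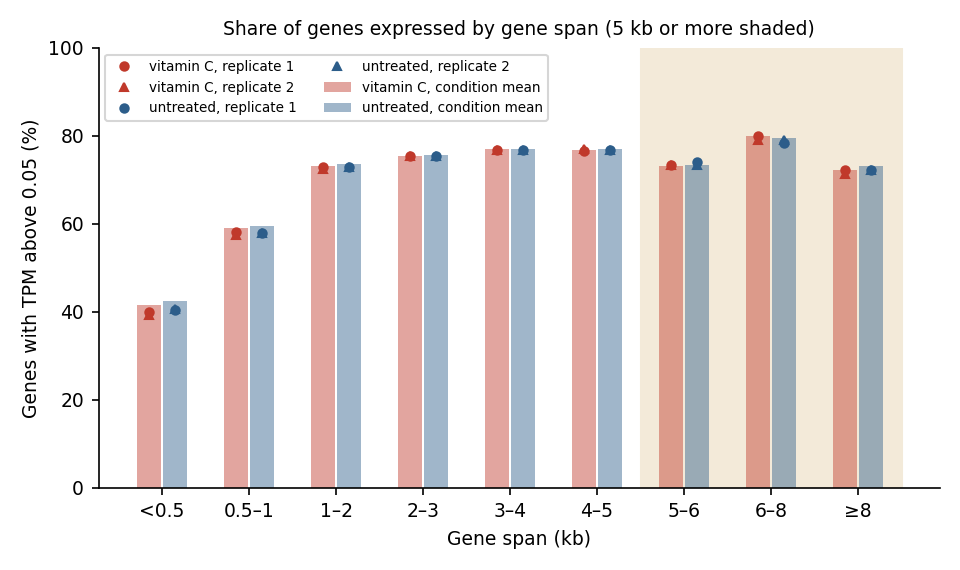
Share of genes with a TPM above 0.05 by gene span in kb, for vitamin C (red) and untreated mycelium (blue). Bars are the condition means and points the single libraries, and the 3 span classes of 5 kb or more are shaded. The share climbs up to the class of 1 to 2 kb and changes little beyond it, with 80.0% and 79.5% at 6 to 8 kb and 72.2% and 73.0% from 8 kb upwards.

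The division into expressed and non-expressed long genes hardly moved with the treatment. In both conditions 440 long genes were expressed and 143 were not, which leaves 2 that passed the threshold under vitamin C only and 3 that did so without it (0.85% of the long genes, against 1.54% of the genes of 1000 to 2000 bp). Those 5 genes had low levels, with means up to 0.058 TPM with vitamin C for the 2 and up to 0.137 TPM in untreated mycelium for the 3. Of the non-expressed long genes, 130 were listed at 0 TPM in all 4 libraries, which is 22.1% of the long genes, against 24.7% of the genes of 1000 to 2000 bp.

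The longest models of all were the least often expressed within the set. From 5000 to under 6000 bp 73.0% of 278 genes were expressed with vitamin C and 73.4% in untreated mycelium, and from 6000 to under 8000 bp 80.0% and 79.5% of 195 genes. Of the 41 models of 10000 bp or more, 24 were expressed with vitamin C (58.5%) and 25 in untreated mycelium (61.0%), and 16 were listed at 0 in every library. Among the 5 longest, 3 were listed at 0 TPM in all 4 libraries. These lie on linkage group 2 from 3806702 to 3822444 (15743 bp), on scaffold 23 from 47902 to 63067 (15166 bp) and on scaffold 25 from 129738 to 143807 (14070 bp). The longest model, on linkage group 4 from 463732 to 479804 (16073 bp, minus strand), had 7.30 and 5.54 TPM with vitamin C and 4.25 and 3.57 TPM in untreated mycelium. Both vitamin C values lie above both untreated values, but the change of 0.59 on the log2(TPM + 1) scale did not pass the test (standard error 0.26, adjusted p = 0.39 by limma). At one end, 1553 bp of this model overlap a gene on the opposite strand, which had 140 and 121 TPM with vitamin C and 108 and 94.97 TPM in untreated mycelium. The other one of the 5, on scaffold 11 from 1013166 to 1026808 (13643 bp), had 2.13 and 1.64 TPM with vitamin C and 1.64 and 1.90 TPM in untreated mycelium, with no separation of the conditions.

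The 3 models just inside the threshold of 5000 bp had 5002, 5002 and 5007 bp. The one on linkage group 6 from 2286019 to 2291020 had 15.1 and 11.4 TPM with vitamin C and 10.99 and 13.9 TPM in untreated mycelium. One on scaffold 14 from 537378 to 542379 was listed at 0 in every library, and one on linkage group 6 from 655420 to 660426 had 6.72 and 4.33 TPM with vitamin C and 3.97 and 6.68 TPM in untreated mycelium. Just outside it were models of 4994, 4994 and 4993 bp, with mean levels of 5.68, 73.1 and 3.46 TPM with vitamin C and of 5.19, 67.4 and 3.12 TPM in untreated mycelium.

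The levels of the expressed long genes had a median close to that of shorter genes but fewer high values. With vitamin C the median of the condition means was 17.9 TPM (interquartile range 6.55 to 39.2) and in untreated mycelium 15.3 TPM (5.40 to 33.8). The genes of 1000 to 2000 bp had 17.1 TPM (3.86 to 55.0) with vitamin C and 18.3 TPM (4.10 to 55.4) in untreated mycelium. In single libraries the median of the expressed long genes was 20.0 and 15.3 TPM with vitamin C and 14.1 and 15.9 TPM in untreated mycelium, against 18.2 and 16.3 TPM and 17.0 and 20.1 TPM for the genes of 1000 to 2000 bp. The long genes had the higher median in vitamin C replicate 1 alone, and the other 3 libraries shared the opposite order. High levels were rarer among the long genes. A mean of 100 TPM or more was reached by 22 of them with vitamin C (4.98% of those expressed) and by 14 in untreated mycelium (3.16%), against 14.7% in both conditions for the genes of 1000 to 2000 bp. Models of 4000 to under 5000 bp also reached this level less often, at 7.43% with vitamin C and 4.75% in untreated mycelium. Levels under 1 TPM were somewhat rarer among the long genes as a set, at 8.14% with vitamin C and 8.58% in untreated mycelium, against 11.1% and 10.8%. From 8000 bp upwards they were more common, at 14.5% and 16.7%. The long genes made up 2.54% of all genes and held 1.68% and 1.51% of all TPM with vitamin C and 1.34% and 1.52% in untreated mycelium. The conditions overlap in this share (two-sided exact permutation test, p = 0.667). Genes are not replicates of a condition, so the medians and shares over genes are descriptions.

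**Figure D2:**
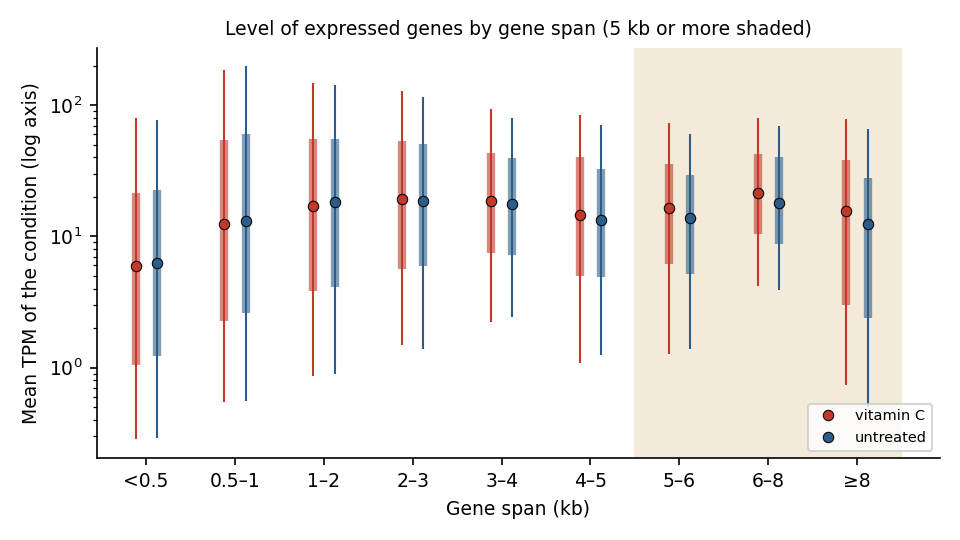
Mean TPM of the condition, on a log axis, for expressed genes by gene span in kb. Points are medians, thick bars the interquartile range and thin lines the 10th to 90th percentile over genes, for vitamin C (red) and untreated mycelium (blue), with the classes of 5 kb or more shaded. The medians lie between 12.4 and 21.6 TPM in the shaded classes, and the lines of these classes end at 79.3 TPM or less.

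A single long gene stood far above the others. It lies on scaffold 29 from 62108 to 68184 (6077 bp, plus strand) and had 2220 and 2733 TPM with vitamin C and 2480 and 3246 TPM in untreated mycelium. The conditions overlap, and the change of -0.20 did not pass the test (standard error 0.20, adjusted p = 0.68 by limma). A model of 585 bp on the same strand lies inside it and had 129 and 193 TPM with vitamin C and 127 and 152 TPM in untreated mycelium. The sources used here do not give how reads were divided between these models, so the level of each is uncertain. Without this gene the long genes held 1.45% and 1.24% of all TPM with vitamin C and 1.09% and 1.19% in untreated mycelium, with no overlap of the conditions (two-sided exact permutation test, p = 0.333, the smallest it can give). The gene was picked by its level in these data and its own change was downwards, so its removal favours this separation.

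The next highest long genes were far lower. On linkage group 7, the gene from 1211830 to 1220157 had 280 and 356 TPM with vitamin C and 390 and 336 TPM in untreated mycelium. On linkage group 1, the gene from 2095543 to 2104886 had 265 and 231 TPM with vitamin C and 180 and 178 TPM in untreated mycelium. A gene on scaffold 19 from 310393 to 315400 had 224 and 234 TPM with vitamin C and 225 and 169 TPM in untreated mycelium. Each of these holds at least 1 smaller model of the same strand within its span, and those smaller models were listed at 0.0122 TPM or less in every library. The order of the libraries differed among these genes, and only the one on linkage group 1 had both vitamin C values above both untreated values (change 0.46, standard error 0.15, adjusted p = 0.31 by limma).

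Long genes were spread over the genome in about the proportion of all genes. On the 10 linkage groups lay 470 of them (79.9%), against 79.0% of the genes of 1000 to 2000 bp. Their share of the genes of a linkage group ranged from 1.94% on linkage group 5 to 3.06% on linkage group 10, with 133 of 4799 genes on linkage group 1 (2.77%). Within 100 kb of the outermost gene end of a linkage group lay 16 of the 470 (3.40%), against 4.30% of the genes of 1000 to 2000 bp. On the plus strand were 286 of the 588 (48.6%). Another long gene was the next model listed for 55 of them (9.35%), against 5.29% of the genes of 1000 to 2000 bp with a long neighbour. These formed 23 pairs and 3 groups of 3. Overlapping models were not left out, and in the pair on linkage group 6 from 2574781 to 2581375 a long model lies inside the other. The group on linkage group 9 from 240036 to 260722 was expressed throughout, with medians of 30.7 and 27.7 TPM with vitamin C and of 24.9 and 27.6 TPM in untreated mycelium. The group on linkage group 10 from 3939832 to 3966621 had low levels, with medians of 0.25 and 0.24 TPM with vitamin C and of 0.19 and 0.33 TPM in untreated mycelium.

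The expressed share of long genes varied with where they lay. On linkage group 5, 10 of 24 long genes were expressed in each condition (41.7%), close to the 41.7% with vitamin C and 42.3% in untreated mycelium of all genes there. On the other 9 linkage groups the share of long genes ranged from 73.0% to 80.8% with vitamin C and from 70.3% to 80.8% in untreated mycelium, and on each it lay above that of all genes of the same group. The gap ranged from 4.76 to 19.5 percentage points with vitamin C, widest on linkage group 7, and from 6.14 to 18.7 in untreated mycelium, widest on linkage group 4. All genes include many short models that were less often expressed. Over the genome, 41.4% of models under 500 bp were expressed with vitamin C and 42.4% in untreated mycelium. The genes of 1000 to 2000 bp were not counted by linkage group. Scaffold 13 had 13 of 14 long genes expressed (92.9%), scaffold 14 had 8 of 15 (53.3%) and scaffold 23 had 0 of 4, each in both conditions. All genes there gave 61.8% with vitamin C and 63.6% in untreated mycelium on scaffold 13, 63.2% and 64.3% on scaffold 14, and 12.7% and 11.9% on scaffold 23. The neighbours of non-expressed long genes were mostly non-expressed too. Both neighbours were non-expressed for 95 of 144 such genes with vitamin C (66.0%) and for 96 of 143 in untreated mycelium (67.1%), against 68.4% and 69.0% for the genes of 1000 to 2000 bp. Of the expressed long genes with a neighbour on each side, 74.7% with vitamin C and 76.3% in untreated mycelium had both neighbours expressed, against 81.9% and 82.8%. Neighbours are the models listed before and after in order of start, so a model inside a long gene can count as its neighbour. Such inner models were present in 19.6% of the long genes, against 1.37% of the genes of 1000 to 2000 bp. Their part in the difference between neighbours was not tested.

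Overlap with other gene models was more common among the long genes. The counts are per model and were not scaled to the span. At least 1 bp was shared with another model by 180 of 588 (30.6%), against 14.3% of the genes of 1000 to 2000 bp, and 115 (19.6%) held a whole smaller model inside their span, against 1.37%. A partner on the opposite strand was present for 142 and one on the same strand for 98. Overlapping long genes were nearly all expressed, 93.3% with vitamin C and 94.4% in untreated mycelium. Of the 408 without overlap, 67.2% were expressed with vitamin C and 66.9% in untreated mycelium. The genes of 1000 to 2000 bp gave 90.4% and 91.2% with overlap and 70.3% and 70.5% without it. Long genes were thus expressed more often than the shorter ones when all were counted and less often among models without overlap. Whether reads of one model were counted for its partner was not tested.

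With vitamin C 0 of the 444 long genes tested were higher and 0 were lower at an adjusted p under 0.05 by limma. It fits each gene on the log2(TPM + 1) scale and draws on all genes for the variance. The test covered the 15107 genes whose TPM averaged above 0.05 over all 4 libraries, and 144 long genes fell below that level. Of all genes tested, 0.0463% were higher and 0.0463% were lower. The smallest adjusted p of a long gene was 0.26 by limma. At an unadjusted p under 0.05 by limma, 35 long genes were higher (7.88%) and 4 were lower (0.90%), against 4.98% and 8.13% of all genes tested. Without vitamin C replicate 1 the counts were 1 higher and 1 lower, in a fit where a single library stands for the condition and where the shares of all genes tested also fell, to 1.09% higher and 3.13% lower. In bulk mycelium, fewer cells of a type and less RNA per cell cannot be told apart.

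The changes of the long genes leaned upwards by a small amount with vitamin C, although their median deviation per library did not separate the conditions. Their median change was 0.19 on the log2(TPM + 1) scale (interquartile range 0.01 to 0.36), and 334 of 444 were above 0 (75.2%). The genes of 1000 to 2000 bp had a median change of -0.04 (interquartile range -0.26 to 0.17) with 44.8% above 0, and all genes tested had -0.02. Both vitamin C values lay above both untreated values for 180 long genes (40.5%) and below them for 39 (8.78%), against 21.0% and 24.9% of all genes tested. On the log2(TPM + 1) scale, which understates changes of low genes, no long gene changed by 1 or more in either direction. Of the 5521 tested genes of 1000 to 2000 bp, 19 had a change of 1 or more and 55 one of -1 or less. Such changes were thus rare in both sets. The SD of the change over genes was 0.26 for long genes and 0.36 for those of 1000 to 2000 bp. With a pseudocount of 0.1 in place of 1, gene_27013 on scaffold 24 had a change of -1.32, so the limit depends on the scale.

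The shift was uneven among the libraries. Each gene was set against its own mean over the 4 libraries, and the median of these deviations was taken per library. For the long genes it was 0.24 and -0.03 in the vitamin C libraries and -0.16 and -0.01 in the untreated libraries, so that vitamin C replicate 2 lay below untreated replicate 2 and the conditions overlap (two-sided exact permutation test, p = 0.667). For the genes of 1000 to 2000 bp it was 0.04 and -0.09 with vitamin C and -0.04 and 0.10 in untreated mycelium. The difference between long and shorter genes was 0.20 and 0.05 with vitamin C and -0.11 and -0.11 in untreated mycelium. The conditions do not overlap in this difference, and the two-sided exact permutation test gave p = 0.333, the smallest it can give with 2 libraries against 2. Vitamin C replicate 1 held the highest of the 4 values for 310 of 444 long genes (69.8%), against 30.2% of the genes of 1000 to 2000 bp, and untreated replicate 1 held the lowest for 229 (51.6%), against 26.7%. Without vitamin C replicate 1 the median change of the long genes exceeded that of the genes of 1000 to 2000 bp by 0.15, against 0.24 with all libraries. The part of its greater depth in these values was not tested.

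The size of the shift followed the span of the genes. Below 1000 bp the median change was -0.10 for models under 500 bp and -0.11 for those from there up to 1000 bp. It was 0.06 at 2000 to 3000 bp, 0.11 at 3000 to 4000 bp and 0.14 at 4000 to 5000 bp. Within the long genes it was 0.16 at 5000 to under 6000 bp, 0.23 at 6000 to under 8000 bp and 0.22 from 8000 bp upwards, where 68 of 84 tested genes were above 0. The 25 tested models of 10000 bp or more had a median change of 0.25, with 21 above 0. The long genes therefore continued a gradient that began well below 5000 bp, with no step at the threshold.

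A gradient in the same direction was present between the vitamin C replicates. The median log2 ratio of the long genes exceeded that of the genes of 1000 to 2000 bp by 0.33 for vitamin C replicate 1 over untreated replicate 1 and by 0.29 over untreated replicate 2. For vitamin C replicate 2 the excess was 0.16 over each of the untreated libraries. Between the vitamin C replicates it was 0.15, replicate 1 over replicate 2, and between the untreated replicates it was -0.02, replicate 1 over replicate 2. The ratio of the vitamin C replicates thus separated long from shorter genes nearly as much as vitamin C replicate 2 against untreated mycelium. The line of the log2 ratio on the span over all tested genes had a slope of 0.23 per 10-fold span for vitamin C over untreated mycelium, 0.14 for vitamin C replicate 1 over replicate 2 and -0.06 for untreated replicate 1 over replicate 2. All 4 ratios of a vitamin C over an untreated library had a positive slope, from 0.12 to 0.33. The median ratio of the long genes itself was -0.02 for vitamin C replicate 2 over untreated replicate 2, and above 0 for the other 3 ratios between conditions.

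**Figure D3:**
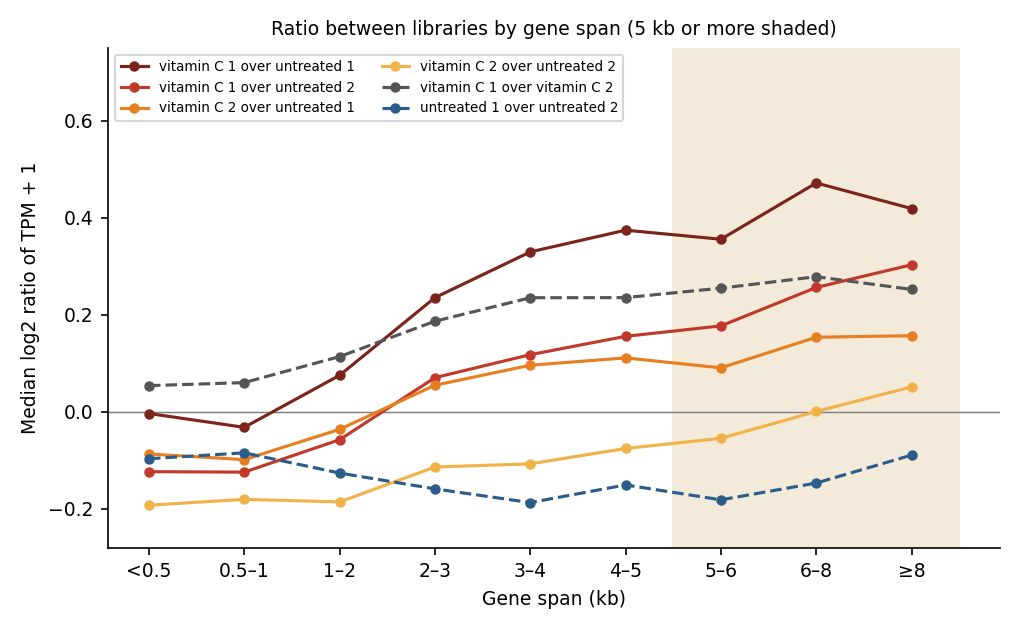
Median log2 ratio of TPM + 1 between libraries by gene span in kb, over the tested genes, with the classes of 5 kb or more shaded. Solid lines are the 4 ratios of a vitamin C over an untreated library and dashed lines the ratios between replicates of 1 condition. The ratio of the vitamin C replicates climbs from 0.05 below 0.5 kb to 0.25 at 5 to 6 kb, as do the ratios between conditions, while that of the untreated replicates stays between -0.19 and -0.08.

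How much of the shift of the long genes lay on the trend of the library ratios with span varied with how the trend was drawn. A smooth curve (lowess) of each library against log10 span was drawn through all tested genes, the long genes included. A remainder near 0 is therefore fixed in part by the fit. At the spans of the long genes the curve gave a median change of 0.17, between 0.14 at the threshold and 0.30 at the longest model. With the curve removed from each library, the median change of the long genes was 0.03 (interquartile range -0.17 to 0.19), and 231 of 444 were above 0 (52.0%). The genes of 1000 to 2000 bp then had a median of 0.01, with 51.0% above 0. By span the remaining median was 0.00 at 5000 to under 6000 bp, 0.05 at 6000 to under 8000 bp and -0.02 from 8000 bp upwards. The curve moved the long genes as a group and left the spread among them nearly as it was, with an SD of 0.26 before and after.

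The counts among the long genes no longer leaned upwards once the curve was removed, which the removal itself fixes in part. At an unadjusted p under 0.05 by limma 10 long genes were then higher and 19 lower, against 6.98% higher and 7.44% lower of all genes tested. Both vitamin C values lay above both untreated values for 115 long genes (25.9%) and below them for 104 (23.4%), against 24.6% and 23.4% of all genes tested. At an adjusted p under 0.05 by limma 0 passed in either direction. The curve includes the long genes themselves, and no such count was made with a curve that left them out. A straight line through the 14663 tested genes under 5000 bp, extended to the long genes, gave 0.11 at their spans, which leaves 0.09 of their median change above the line. The ratio of the vitamin C replicates, treated in the same way, left 0.03, and that of untreated replicate 1 over replicate 2 left 0.04.

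**Figure D4:**
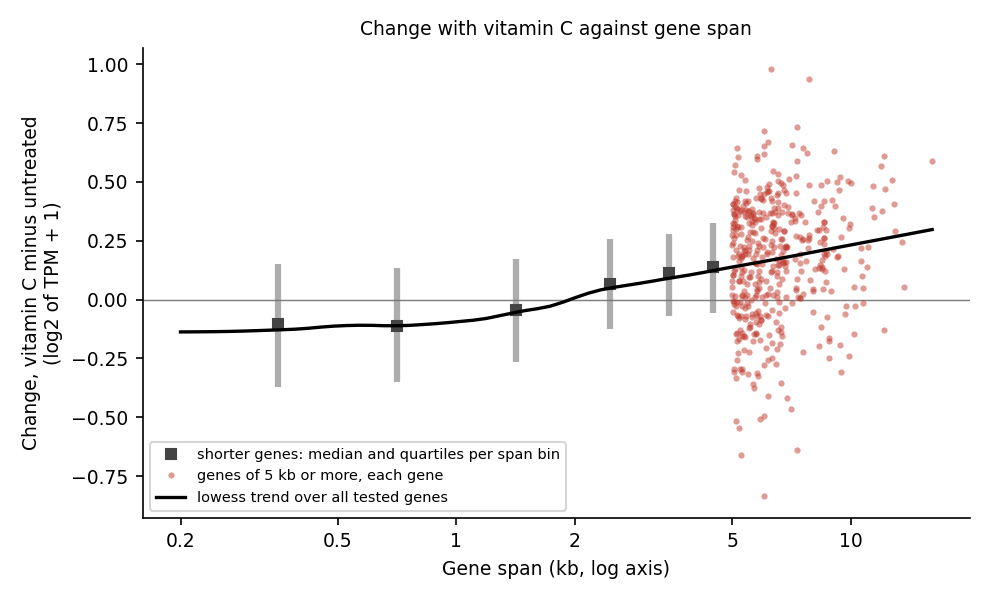
Change with vitamin C against untreated mycelium, on the log2(TPM + 1) scale, against gene span in kb on a log axis. Red points are the 444 tested genes of 5 kb or more, grey squares and bars the median and quartiles of shorter genes per span class, and the black line the lowess curve through all tested genes. The curve reaches 0.14 at 5 kb and 0.30 at the longest gene, and the red points scatter on both sides of it.

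The difference from the genes of 1000 to 2000 bp was present at most expression levels. At a mean of 10 to 50 TPM the long genes had a median change of 0.22 (173 of 204 above 0), against -0.06 for the genes of 1000 to 2000 bp. At 1 to 10 TPM the values were 0.16 and -0.11, and at 50 TPM or more 0.33 and 0.04. Under 1 TPM the order was the other way round, with -0.09 for 38 long genes (11 above 0) and -0.04 for the shorter ones. On the log2(TPM + 1) scale changes of such low genes are understated.

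The long genes with the strongest statistics had changes well away from the trend, although none passed the adjusted test. Of those with a mean of at least 1 TPM in a condition and no overlap between the conditions, 175 were higher (43.0% of 407) and 26 lower (6.39%), against 22.0% and 25.3% of all genes tested that reached this level. From these, the 5 with the largest moderated t in each direction are described. Their separation is required by this choice, and large changes and intervals away from 0 follow from it in part. The gene gene_1861, on linkage group 1 from 4266986 to 4274823 (7838 bp, plus strand), had 54.7 and 40.2 TPM with vitamin C and 24.4 and 23.7 TPM in untreated mycelium. Its change was 0.94 (standard error 0.21, 95% interval 0.44 to 1.43, adjusted p = 0.26 by limma), and 0.74 was left above the trend at its span. The gene gene_8252, on linkage group 3 from 912251 to 918031 (5781 bp, minus strand), had 134 and 117 TPM with vitamin C and 78.3 and 86.7 TPM in untreated mycelium, which is a change of 0.60 with a standard error of 0.16 (adjusted p = 0.28 by limma). No other model overlaps these genes. In both, the separation of the conditions was wider than the gap between replicates.

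The other 3 higher genes had no overlap between the conditions either, as their choice requires. On linkage group 7, the gene from 1789863 to 1795883 had 290 and 224 TPM with vitamin C and 135 and 178 TPM in untreated mycelium. It was also among the 5 highest long genes, and 1080 bp of it overlap a gene on the opposite strand that had 16.2 and 11.6 TPM with vitamin C and 12.9 and 18.1 TPM in untreated mycelium. On linkage group 1, the gene from 68496 to 74276 had 56.6 and 51.3 TPM with vitamin C and 35.6 and 34.4 TPM in untreated mycelium. On linkage group 6, the gene from 3550289 to 3557611 had 68.3 and 65.0 TPM with vitamin C and 47.3 and 33.4 TPM in untreated mycelium. Their changes were 0.72, 0.61 and 0.73, of which 0.55, 0.45 and 0.54 were left above the trend (adjusted p = 0.29, 0.30 and 0.30 by limma).

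The lower genes went against the shift of the long genes. The gene gene_19409, on linkage group 9 from 1591708 to 1596985 (5278 bp, minus strand), had 57.6 and 49.9 TPM with vitamin C and 83.5 and 86.9 TPM in untreated mycelium. Its change was -0.66 (standard error 0.16, 95% interval -1.04 to -0.27, adjusted p = 0.27 by limma), which lies -0.80 from the trend. The gene gene_27013, on scaffold 24 from 167555 to 173586 (6032 bp, minus strand), had 0.90 and 0.86 TPM with vitamin C and 1.85 and 2.94 TPM in untreated mycelium, which is a change of -0.84 with a standard error of 0.23 (adjusted p = 0.29 by limma). On linkage group 1, the gene from 5341112 to 5348146 had 50.9 and 51.9 TPM with vitamin C and 77.1 and 66.0 TPM in untreated mycelium. It shares 271 bp with a gene on the same strand at 181 and 157 TPM with vitamin C and 173 and 166 TPM in untreated mycelium, and 393 bp with a long gene on the opposite strand. On linkage group 7, the gene from 883886 to 889093 had 1.59 and 1.22 TPM with vitamin C and 2.20 and 2.82 TPM in untreated mycelium. On linkage group 1, the gene from 1356034 to 1361143 had 22.1 and 22.2 TPM with vitamin C and 25.6 and 40.2 TPM in untreated mycelium. These last 3 had changes of -0.46, -0.54 and -0.52 (adjusted p = 0.33, 0.38 and 0.42 by limma). For the gene from 1356034 to 1361143 the 95% interval, -1.10 to 0.07, includes 0. Its change was -0.20 without untreated replicate 2.

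**Figure D5:**
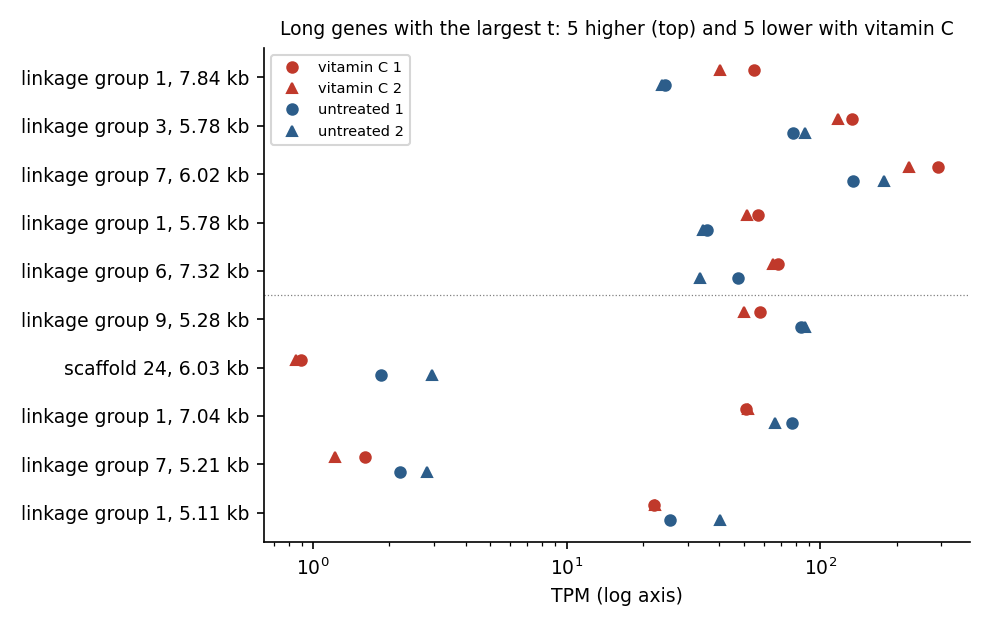
TPM on a log axis of the 5 long genes higher (top) and the 5 lower (bottom) with vitamin C that had the largest moderated t, labelled by linkage group or scaffold and span. Red symbols are the vitamin C libraries and blue the untreated libraries, circles for replicate 1 and triangles for replicate 2. The conditions do not overlap in any of the 10, as the choice of genes requires.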

How the data were processed

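The data were 2 vitamin C and 2 untreated RNA-seq libraries of *L. bicolor* mycelium, grouped by the sample labels. The authors used BBDuk for trimming, hisat2 for alignment to the V2 genome, samtools markdup 1.12 against duplicates and StringTie 2.0.3 for gene levels. Whether StringTie was told the strand, the sources used here do not give. The deposited TPM values are scaled to one total in each library. The deposited FPKM values served as an alternative, and the deposited coverage is the mean depth over exons. None are read counts, so no count model and no counting interval was used.

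Changes were tested by limma 3.58.1 (R 4.3.3, variance trend included) on log2(TPM + 1) over genes with a mean TPM above 0.05, with Benjamini-Hochberg adjustment over all of them. The procedure was tested on simulated data. That test held no trend with span and no added change below 1 on this scale, so it does not cover changes as small as those of the long genes. Lowess curves (fraction 0.3, statsmodels 0.14.6) and exact permutation tests (scipy 1.17.1) were computed in Python 3.11.15 with numpy 2.4.6 and pandas 2.3.3. Figures were drawn with matplotlib 3.10.9.

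Genes were named by largest span, highest mean TPM and nearness to 5000 bp, and by largest moderated t among long genes of at least 1 TPM in a condition whose conditions do not overlap. The set of long genes, the span classes and the tests were chosen with earlier results of these data known. Alternatives covered the pseudocount, filters, scaling, variance model, replicate block, span limits, overlap between models and each library left out. Modification maps and TE positions were not used here.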

Additional observations from a re-analysis of the deposited data

How the results depend on the processing

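The crossed pairing of replicates, the limit to genes above 0 in all libraries and the recount of separated genes after removal of the trend were chosen after seeing the data. No long gene passed an adjusted p under 0.05 by limma in any fit run, apart from the crossed pairing, which gave 4 higher and 1 lower beside 0.662% higher and 1.49% lower of all genes tested. The limit of 4000 bp added 1 higher gene. No source ties the replicate numbers to a common culture or day, and the differences between replicates 1 and 2 correlated at -0.26 between the conditions across genes. The replicate block gave 0 higher and 0 lower (0.285% and 0.563% of all genes), and 13 and 3 at an unadjusted p under 0.05 (2.93% and 5.31% of all genes). At that unadjusted p the main fit gave 35 higher and 4 lower. They became 105 and 10 with the crossed pairing (11.7% and 14.9% of all genes) and 69 and 5 with quantile normalization (7.38% and 8.70%). With the span trend removed they were 10 and 19 (6.98% and 7.44%). They were 29 and 7 with FPKM (4.09% and 10.9%) and 39 and 12 with no filter (3.43% and 5.43%). The span limits leave the shares of all genes at 4.98% and 8.13%. From 4000 bp, which adds 528 tested genes, the counts became 76 and 18. From 6000 bp, which drops 205, they became 23 and 2. With 1 library left out they ranged from 1 to 22 higher and from 0 to 9 lower (1.09% to 4.95% and 3.13% to 9.65% of all genes), the lowest count of higher genes being without vitamin C replicate 1. The genes separated between conditions, 180 higher and 39 lower, became 115 and 104 with the trend removed. Except where the alternative tests other genes or removes the trend by its construction, the cause was not tested.

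The share of long genes expressed was 75.2% with vitamin C and 75.3% in untreated mycelium. It became 76.9% and 77.6% at any TPM above 0, 69.0% and 68.9% at a mean of at least 1 TPM, 74.7% and 74.1% with both libraries above 0.05, 67.2% and 66.9% without overlapping models, 76.1% and 76.2% from 4000 bp and 77.1% and 77.1% from 6000 bp. With 1 library left out it was 74.8% to 75.3% with vitamin C and 75% to 75.2% in untreated mycelium. The median change of long genes minus that of the genes of 1000 to 2000 bp was 0.24. It was 0.13 against genes of 2000 to 3000 bp and 0.149 (without vitamin C replicate 1) to 0.329 (without vitamin C replicate 2) with 1 library left out. The median change left after removal of the trend was 0.03. It was 0.0774 with a straight line, 0.0866 with a line fitted under 5000 bp, 0.0471 with a pseudocount of 0.1 and 0.000224 (without vitamin C replicate 1) to 0.0543 (without vitamin C replicate 2) with 1 library left out. The 10 genes named by their t kept their sign in every fit, which their choice fixes in part, and 4 of them passed in the crossed pairing. Read depth limits what can be said of low genes, and a listed 0 may be a failed estimate.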

Other observations

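A TPM of 0 in 1 library beside at least 1 TPM in the other 3 was found for 2 long genes, chosen after their values were seen. On linkage group 1 from 2239607 to 2245882, a gene of 6276 bp had 3.61 and 3.07 TPM with vitamin C and 0 and 3.83 TPM in untreated mycelium. It overlaps 4 other models on its strand, and its change of 0.98 is the largest among the long genes but does not separate the conditions. On scaffold 19 from 164104 to 170890, a gene of 6787 bp had 1.61 and 2.58 TPM with vitamin C and 4.36 and 0 TPM in untreated mycelium, with no overlapping model.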
